A study of Mus musculus with 6 samples.

Results

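The TALE homeobox genes considered here are Meis1, Meis2, Meis3, Pbx2, Pbx3, Pbx4, Pknox1, Pknox2 and Tgif1, 9 of 21883 protein-coding genes on the assembled chromosomes of GRCm38. For each gene, every peak inside its RefSeq span or within 100 kb of either end was taken from the 3 Onecut3-OE FLAG peak lists. The 9 genes were chosen by the peaks, folds and number of lists measured in these same replicates, so these values are given as a description, without a test. The label TALE rests on the gene names, and protein sequences were not used here. The ChIP-Seq was performed on mouse embryonic fibroblasts (MEFs) of the strain C57BL/6, in which 100 ng/mL doxycycline switched on FLAG-tagged Onecut3 from a Retro-X Tet-One inducible retroviral construct. Of the 6 libraries of the series, 3 are anti-FLAG replicates of the Onecut3-OE cells and have peak lists. The others are 1 anti-FLAG library of cells without doxycycline and 1 input and 1 IgG library of Onecut3-OE cells, and they were not analysed here, so signal that the antibody gives without Onecut3 has not been taken away. The Onecut3-OE cells overexpress the factor from a transgene, so binding at the natural level of Onecut3 was not measured. Neither the labels nor the methods state whether separate cultures were used, so the spread between replicates may be technical.

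TALE proteins carry a homeodomain with a 3-amino acid loop extension. The PBX, MEIS and PKNOX (also PREP) proteins bind DNA in pairs with each other and with HOX proteins, whose choice of sites they sharpen in the embryo and in blood stem cells. TGIF1 binds sites related to those of the MEIS proteins but acts as a corepressor, also in TGF-beta signaling. Onecut3 itself binds DNA through a CUT domain and a homeodomain of another class.

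At the start of Meis1, a shared FLAG region (a region with a peak in all 3 lists) covered part of the promoter, as printed here, while the promoter of its paralog Meis2 had no peak. Both sequences are from RefSeq (GRCm38.p6), reach from 250 bases before to 50 after a start of transcription and are given 5′ to 3′ on the minus strand. The capitals mark the 133 bases of the Meis1 promoter that lay within the shared region.
Meis1 promoter, chr11:19018920-19019219: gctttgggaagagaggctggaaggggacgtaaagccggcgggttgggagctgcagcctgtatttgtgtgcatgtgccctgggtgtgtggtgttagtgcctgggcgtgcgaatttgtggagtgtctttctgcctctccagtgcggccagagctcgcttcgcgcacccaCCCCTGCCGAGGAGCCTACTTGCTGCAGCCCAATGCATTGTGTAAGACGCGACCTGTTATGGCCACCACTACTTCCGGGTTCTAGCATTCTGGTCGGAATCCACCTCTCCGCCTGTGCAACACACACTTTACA
Meis2 promoter, chr2:116064570-116064869: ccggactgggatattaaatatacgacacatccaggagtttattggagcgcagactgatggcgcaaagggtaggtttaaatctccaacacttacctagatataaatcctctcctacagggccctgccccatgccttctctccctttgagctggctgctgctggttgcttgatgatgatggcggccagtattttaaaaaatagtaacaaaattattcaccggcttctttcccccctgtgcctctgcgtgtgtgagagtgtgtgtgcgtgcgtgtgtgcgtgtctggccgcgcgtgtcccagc
Promoter sequences were found for 6 of the 9 genes (Meis1, Meis2, Meis3, Pbx2, Pbx4 and Tgif1), with 10 windows in all because Tgif1 has several starts. Among the 10 windows, 1 was touched by a shared region, the one at Meis1, against 1.32% of all 32851 promoter windows. None of the 10 held ATCGAT, or ATCAAT and its reverse complement ATTGAT, which are core letters of ONECUT sites. Over all promoter windows, ATCGAT was in 0.925% and ATCAAT or ATTGAT in 7.54%, and among the 432 windows touched by a shared region these letters were in 11.3% and 27.1%. The summits at Meis1 lay just outside the printed window, so the absence of these letters says nothing of the sequence under them. The PBX-type letters TGATTGAT (or ATCAATCA), which contain ATTGAT or ATCAAT, were also in none of the 10 windows and in 0.746% of all. The MEIS-type letters TGACAG (or CTGTCA) were in 2 of the Tgif1 windows, neither with a peak, and in 19.2% of all windows.

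The 9 genes had 75 regions with a peak in any list, of which 15 (20%) were shared by all 3 lists, beside 10.1% of the 50844 regions of the whole series. Another 12 regions were in 2 lists and 48 in 1 list. Of the 9 genes, 8 had at least 1 shared region inside the gene or within 100 kb, beside 40.6% of all protein-coding genes, and Pknox2 was the gene without any. The median over the 9 genes was 2 shared regions, beside 0 over all protein-coding genes, while the median number of regions in any list was 5 for both. Per 100 kb of gene and flanks, the median of the members was 0.499 shared regions, beside a median of 0 and a mean of 0.262 for all protein-coding genes. The mean of the members was 0.574. The median span of the members was 43.0 kb, beside 17.2 kb over all protein-coding genes, and a longer gene has a wider window. Pbx2, Tgif1 and Meis3 were shorter than this median of all genes. The part of length in these numbers was not tested. Inside the gene itself, 4 of the 9 genes had a shared region, beside 9.53% of all protein-coding genes. These were Meis1, Meis2, Pbx3 and Pknox1, with spans of 139, 206, 201 and 43.0 kb, all above the median of all genes. Pknox2, with a span of 256 kb, had none. A longer gene has more room for a region, and the part of length was not tested here either.

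**Figure D1:**
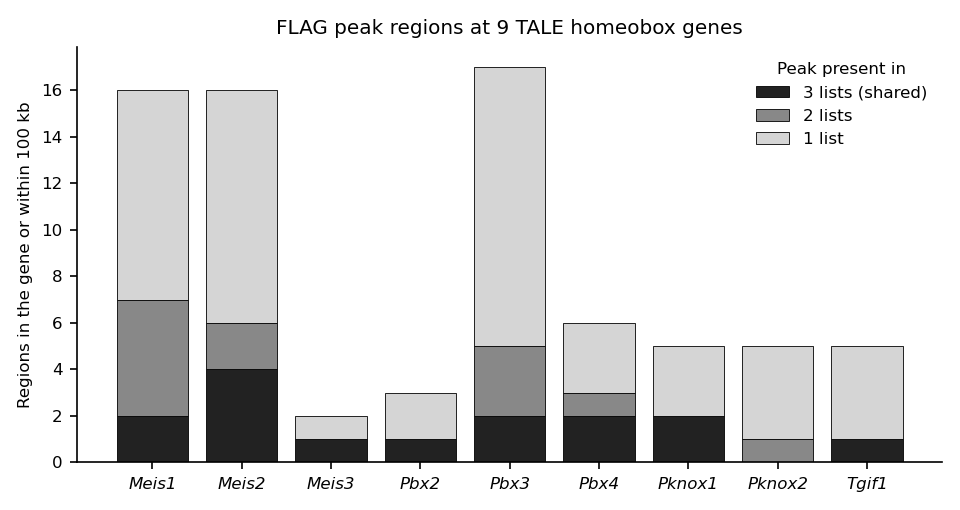
Number of FLAG peak regions (y axis) inside each of the 9 genes or within 100 kb, with bars split by whether the region had a peak in 3, 2 or 1 of the lists. Meis1, Meis2 and Pbx3 had 16, 16 and 17 regions, the other genes 2 to 6, and Pknox2 had no region in 3 lists.

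**Figure D2:**
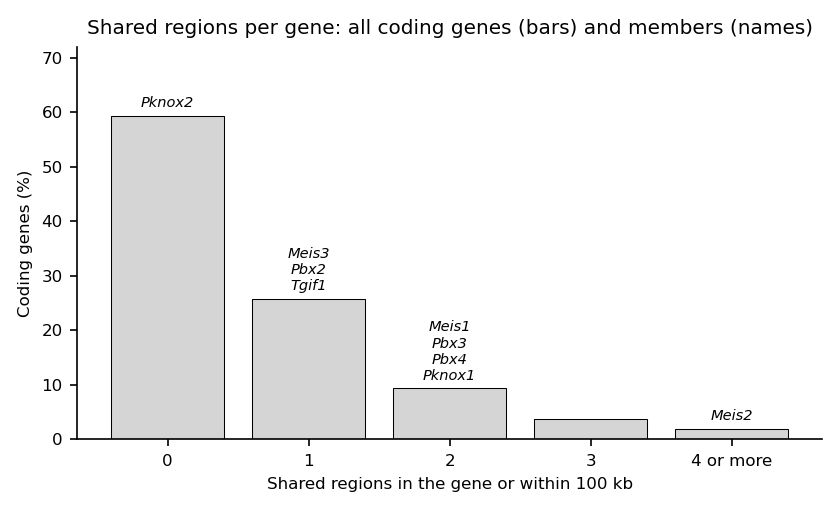
Percent of all 21883 protein-coding genes (grey bars, y axis) by their number of shared regions inside the gene or within 100 kb (x axis), with the 9 TALE genes named above the bar of their number. Of all genes 59.4% had none, as Pknox2, and 1.91% had 4 or more, as Meis2.

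The lists differ in length and reach down to weak peaks, which sets how firmly a single peak can be read. Replicates 1, 2 and 3 held 31600, 12856 and 24822 peaks, of which 57, 25 and 37 were at the 9 genes. Each peak has the authors' fold over the control at its summit and a q value, and 33.6%, 71.0% and 47.7% of the peaks of the 3 lists had q of at most 0.05. Read numbers are not part of the lists, and the sequencing depth is thus unknown. In replicates 1 and 3, fold and p together give the number of ChIP fragments at the summit, and the peaks at the 9 genes had a median of 10 and 11 fragments. They ranged from 6 to 41 fragments in replicate 1 and from 8 to 41 in replicate 3. In replicate 1, a peak with a fold of 3.03 is a pileup of 9 fragments over a background of 2.30. A fold depends on the depth of its list, so it was compared only within a list. Over all peaks at the 9 genes, the median fold was 3.03, 3.90 and 3.70 in replicates 1, 2 and 3, beside 3.03, 3.79 and 3.18 for the whole lists.

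Meis1, whose protein is a HOX cofactor of blood stem cells and a driver of leukemia, had the strongest region of the group. Meis1 lies on chromosome 11 from 18880428 to 19019651, on the minus strand. The region from 19020252 to 19021052 lay 0.601 kb beyond the upstream end of the gene, and its folds were 12.7, 12.2 and 13.4 in replicates 1, 2 and 3, with q values of 6.04e-31, 6.58e-30 and 6.08e-32. In each list, this was the highest fold at the 9 genes. The pileup was 41 fragments in both replicates 1 and 3, over a background of 2.30 and 2.14. By mean rank of fold this region was number 3 of the 5114 shared regions, and no other peak at the 9 genes exceeded a fold of 8.35 in any list. Its summits in the 3 lists lay within 11 bp of each other, at 1626, 1621 and 1632 bp upstream of the start at base 19018969. The RefSeq span of Meis1 reaches 682 bp further upstream than this start.

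The second shared region at Meis1, from 19018713 to 19019052, is the one over the printed promoter. Its folds were 6.36 (q = 5.63e-09), 4.73 (q = 1.05e-04) and 4.78 (q = 1.31e-04) in replicates 1, 2 and 3, above those of 98.6%, 80.9% and 91.0% of the peaks of each list. The summits lay 63, 63 and 65 bp downstream of the start, within 2 bp of each other. Over all 5114 shared regions, the summits of the 3 lists lay a median of 67 bp apart, and 9.87% of the regions had them within 20 bp. Thus both Meis1 regions had summits that lay closer together than in most shared regions.

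Further into Meis1, no region was in all lists. The gene had another 5 regions in 2 lists, of which 4 had no peak in replicate 2. The highest of them, from 18988751 to 18989397 inside the gene, had a fold of 4.29 in replicate 1 and 5.09 in replicate 3. The region from 19015623 to 19015905, inside the gene and also inside the lncRNA gene Gm16141, was found in the same lists at 3.03-fold and 4.46-fold. The region from 18965173 to 18965425, at 3.63-fold and 3.42-fold, had its summit at the same base in both. These 3 regions all lacked a peak in replicate 2. The region from 18929789 to 18930116 was instead in replicates 1 and 2, at 4.24-fold and 4.46-fold. Upstream of the gene, replicates 1 and 3 held a region from 19031455 to 19031706 at 3.03-fold and 2.87-fold. Without replicate 2, the shortest list, Meis1 had 6 shared regions in place of 2. Fewer lists then have to share a region, and the shared regions of the whole series went from 5114 to 9435.

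**Figure D3:**
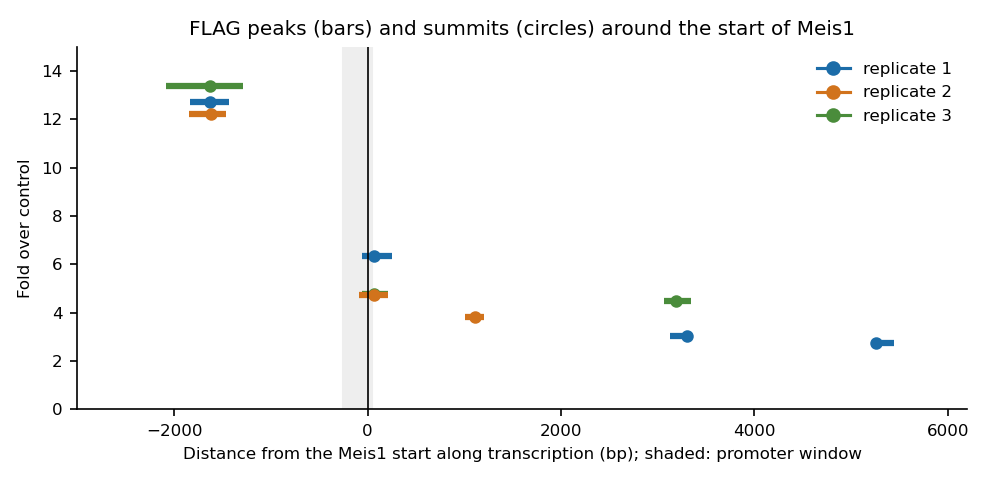
Peaks around the start of Meis1, with distance from the start along transcription on the x axis (bp, negative is upstream) and the authors' fold on the y axis; bars are peak widths, circles are summits, colors are replicates and the shaded band is the printed promoter window. All 3 lists had a peak with a fold above 12 at 1621 to 1632 bp upstream and a second peak just downstream of the start, and the peaks further into the gene were in fewer lists.

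Meis2, a paralog of Meis1 with roles in limb, heart and brain development, had the most shared regions, 4, all inside the gene, and in each list their folds were lower than at the strong region upstream of Meis1. It lies on chromosome 2 from 115861264 to 116067537 on the minus strand. Folds in replicates 1, 2 and 3 were 4.54, 4.18 and 3.82 for the region from 115895702 to 115895983. The region from 115920550 to 115920853 had folds of 3.09, 4.46 and 4.14. Nearer the start of the gene, the region from 116045427 to 116045865 had folds of 3.56, 2.84 and 5.30. The one nearest to the start, from 116052622 to 116052866, had folds of 3.63, 3.07 and 3.18. Of these 4 regions, only the one from 115895702 had q of at most 0.05 in every list. In replicate 2, the pair nearer the start had folds above only 9.96% and 14.6% of the list's peaks. The start of Meis2 at base 116064619 had its nearest peak 3.14 kb upstream, in replicate 3 alone, and its nearest shared region lay 11.8 kb downstream. The RefSeq span of Meis2 reaches further upstream than this start, and that peak, with a fold of 3.82, lay 0.22 kb beyond its upstream end.

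Upstream of Meis2, 2 regions were in 2 lists. The region from 116075719 to 116076173, which touched the promoter of the lncRNA gene 2810405F15Rik, was 4.35-fold in replicate 2 and 2.85-fold in replicate 3. A more distant one, from 116106163 to 116106484, was 3.94-fold in replicate 1 and 3.13-fold in replicate 3. Meis3, the other member of the MEIS family, had no peak in the gene. The 2 regions of its window were a peak of replicate 1 inside Dhx34, with a fold of 3.33, and a shared region 99.2 kb away. The shared region, on chromosome 7 from 16285740 to 16286324, covered the promoter of Ccdc9, so it lay close to another gene. Its folds were 5.15, 3.35 and 3.18, and chromosome 7 had 0.778 shared regions per Mb beside 2.05 for all autosomes. Chromosome 9, with Pknox2, had 1.25 per Mb. Chromosomes 2, 8, 11 and 17, with the other members, had 2.69, 2.78, 2.39 and 2.18 per Mb. The part of the chromosome in the counts of the members was not tested.

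Among the PBX genes, Pbx3 had shared regions inside the gene, while those of Pbx2 and Pbx4 lay in neighboring genes. Pbx3, which encodes a HOX partner active in the hindbrain and in leukemia, lies on chromosome 2 from 34171457 to 34372045. The region from 34280601 to 34281441 had folds of 5.15 (q = 9.38e-06), 8.35 (q = 9.06e-15) and 5.09 (q = 2.42e-05) in replicates 1, 2 and 3. It was the highest of the group in replicate 2 after the Meis1 region, with its summits within 35 bp of each other. Replicate 1 had a second, weak peak in it, with a fold of 2.12 and 6 fragments. The region from 34346784 to 34347145 had folds of 3.03, 3.62 and 5.13, high in replicate 3 and at the list's median or below in the others.

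Pbx3 also had 3 regions in 2 lists. Inside the gene, replicates 1 and 2 held a region from 34286999 to 34287354 at 2.42-fold and 3.62-fold. The same lists held a second one, from 34339624 to 34340062, at 2.73-fold and 3.62-fold. Outside it, 22.9 kb from the lower-coordinate end, replicates 1 and 3 held a region from 34148220 to 34148603 at 3.22-fold and 3.13-fold. In replicate 1, both regions inside the gene were below the list's median fold. The other 12 regions of Pbx3 were in 1 list each.

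Pbx2, a broadly expressed PBX gene in the major histocompatibility complex, lies on chromosome 17 from 34592259 to 34597400 and had no peak in the gene. Its 1 shared region, from 34603517 to 34603837, lay 6.12 kb away inside Rnf5, which encodes a ubiquitin ligase. The folds there were 6.58 (q = 1.25e-11), 3.35 (q = 0.0348) and 4.83 (q = 2.40e-06), and the background was 3.11 in replicate 1 and 3.35 in replicate 3, above the lowest value of each list (2.30 and 2.14). The span of Pbx4, the PBX gene known for its expression in the testis, runs on chromosome 8 from 69832476 to 69872292. Within it, 1 region from 69849312 to 69849700 was 2.42-fold in replicate 1 and 3.18-fold in replicate 3, and replicate 2 had no peak there. Of its 2 shared regions, the one inside Yjefn3, 18.7 kb away from 69891037 to 69891417, had folds of 4.56, 3.87 and 5.41. The other lay 94.6 kb away inside Gatad2a, which encodes a subunit of the NuRD chromatin complex, from 69966910 to 69967695, with folds of 3.07, 4.68 and 3.86. By the highest peak of each list, the summits of this last region lay 470 bp apart, the widest spread of the 15. Replicate 2 had 2 peaks there. The other one, with a fold of 4.44, had its summit at base 69967455, beside 69967470 and 69967534 in replicates 1 and 3. With that peak, the region was also shared under the rule of summits within 100 bp. The background of the region, 4.54 and 4.18 in replicates 1 and 3, was the highest of the 15.

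Pknox1 and Pknox2, which encode the PREP partners of PBX proteins, differed in what the lists held. Pknox1 lies on chromosome 17 from 31564722 to 31607693. A shared region from 31564623 to 31564913 covered the lower-coordinate end of the gene, with folds of 5.36 (q = 5.41e-08), 4.30 (q = 3.96e-05) and 4.73 (q = 6.15e-06) in replicates 1, 2 and 3. The pileup was 22 fragments in replicate 1 and 19 in replicate 3, over a background of 3.29 and 3.23. This end was the only end of a member other than that of Meis1 with a shared region over it or within 1 kb. The table used gives no strand for Pknox1. A second shared region lay 97.4 kb away, from 31705062 to 31705387, between genes, 23.3 kb from Cryaa, which encodes a crystallin of the lens. Its folds were 3.22, 5.85 and 5.73.

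Pknox2, the longest of the 9 genes, lies on chromosome 9 from 36890979 to 37147342 and had 5 regions but none in all lists. Replicate 2 had no peak in its window. Inside the gene, 1 region from 37016372 to 37016697 was 3.03-fold in replicate 1 and 3.82-fold in replicate 3. The highest fold, 5.45, was in replicate 1 alone, at the peak from 37047622 to 37047867. Without replicate 2, when fewer lists have to share a region, Pknox2 had 1 shared region. All 9 genes then had at least 1, beside 56.6% of all protein-coding genes.

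Tgif1 had no peak in the gene, and its nearest peak lay 19.8 kb upstream. It lies on chromosome 17 from 70844205 to 70853532 on the minus strand. Its 1 shared region, from 70747820 to 70748131, lay 96.1 kb away inside Dlgap1, which encodes a scaffold of synapses, with folds of 2.73, 3.62 and 4.78. The fold was high in replicate 3, and in replicate 1 it was higher than in only 20.6% of the list's peaks.

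**Figure D4:**
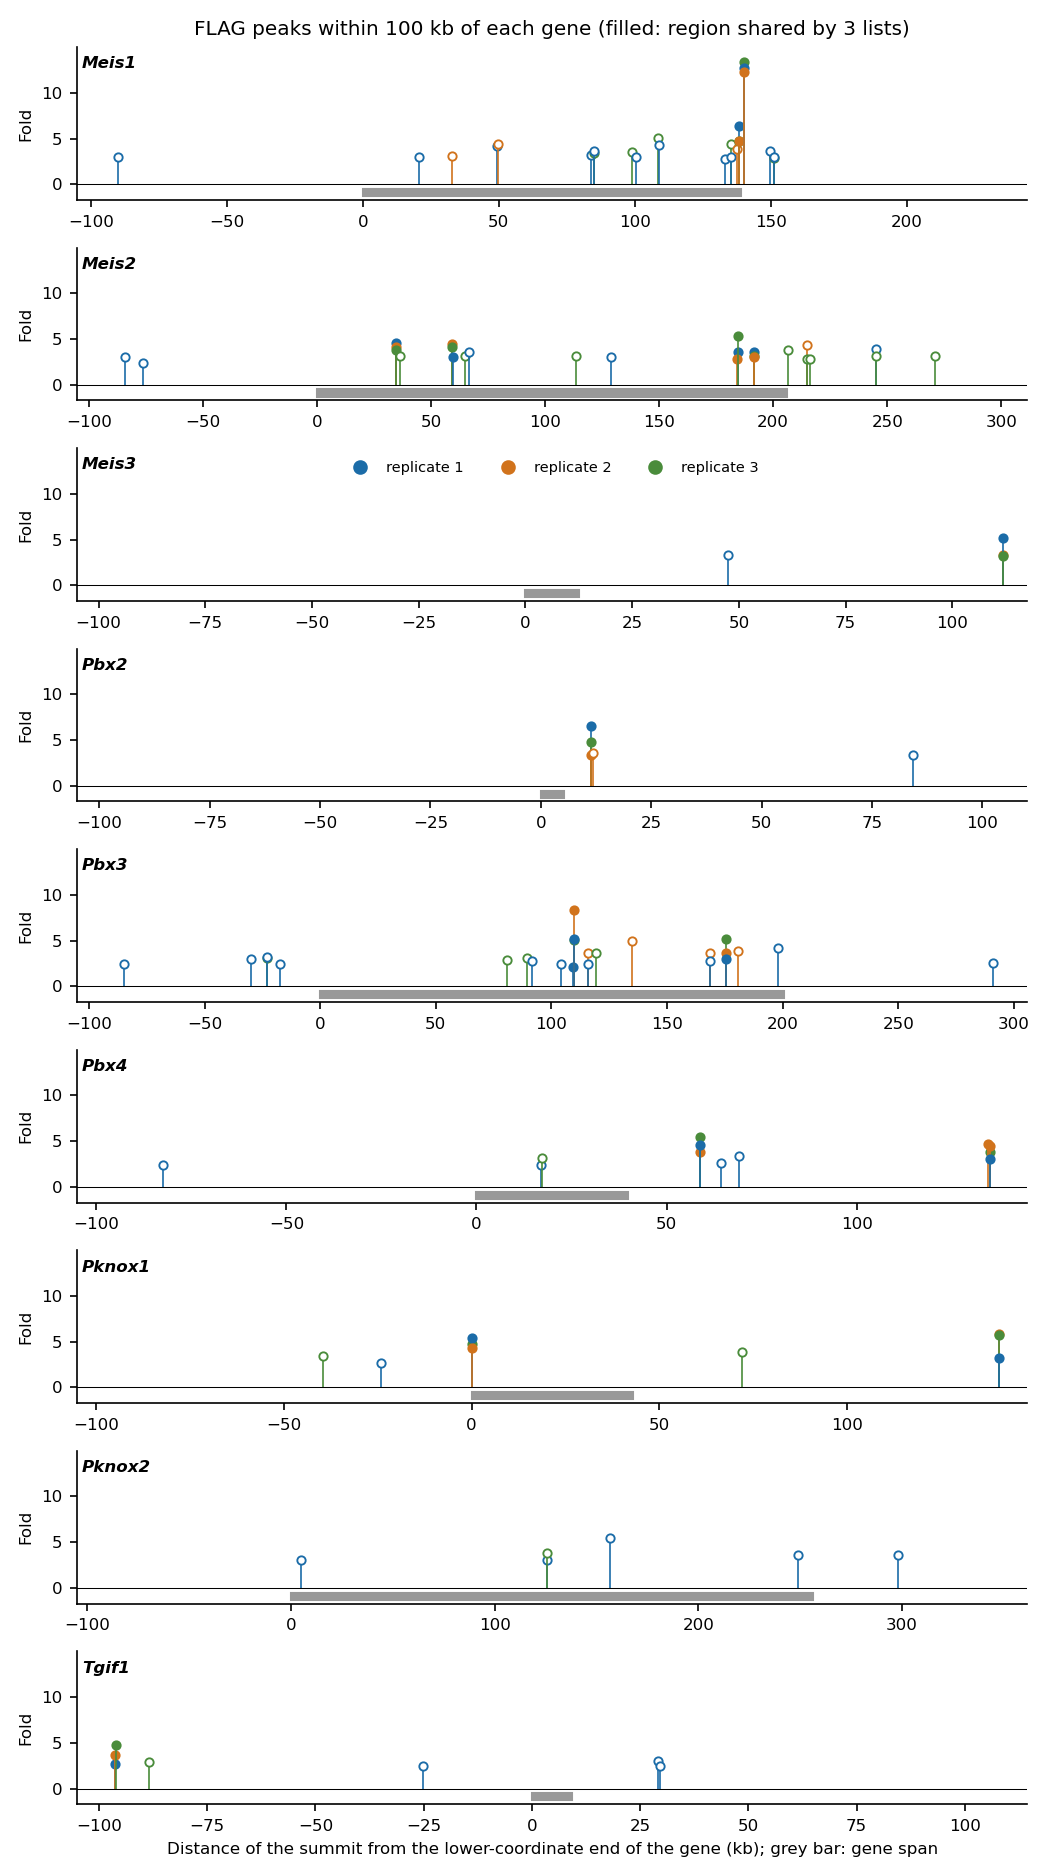
Peaks of the 3 lists in and around each of the 9 genes, with the distance of the summit from the lower-coordinate end of the gene on the x axis (kb) and the authors' fold on the y axis; grey bars are gene spans, colors are replicates and filled circles are peaks of regions shared by all 3 lists. The tallest group of peaks stands at the higher-coordinate end of Meis1, and the filled circles of Meis3, Pbx2, Pbx4 and Tgif1 all lie outside the gene.

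By place, the 15 shared regions fell into those at a member and those at its neighbors. Of the 15, 8 lay inside a member (1 at Meis1, 4 at Meis2, 2 at Pbx3 and 1 at Pknox1), and the strong Meis1 region just outside. For these 9 regions, the member was the nearest protein-coding gene. For the other 6, another gene was nearer, and 5 of the 6 lay inside that gene. Near the 100-kb limit, the last regions counted were those at 94.6 kb from Pbx4, 96.1 kb from Tgif1, 97.4 kb from Pknox1 and 99.2 kb from Meis3. The first shared regions not counted were at 101 kb from Pbx4, with folds of 3.33, 3.62 and 4.14, and at 116.9 kb from Meis2, with folds of 4.24, 3.62 and 3.18. Thus Tgif1 and Meis3 counted as genes with a shared region through 1 distant region each. Within 50 kb, 6 of the 9 genes had a shared region, beside 27.8% of all protein-coding genes.

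**Figure D5:**
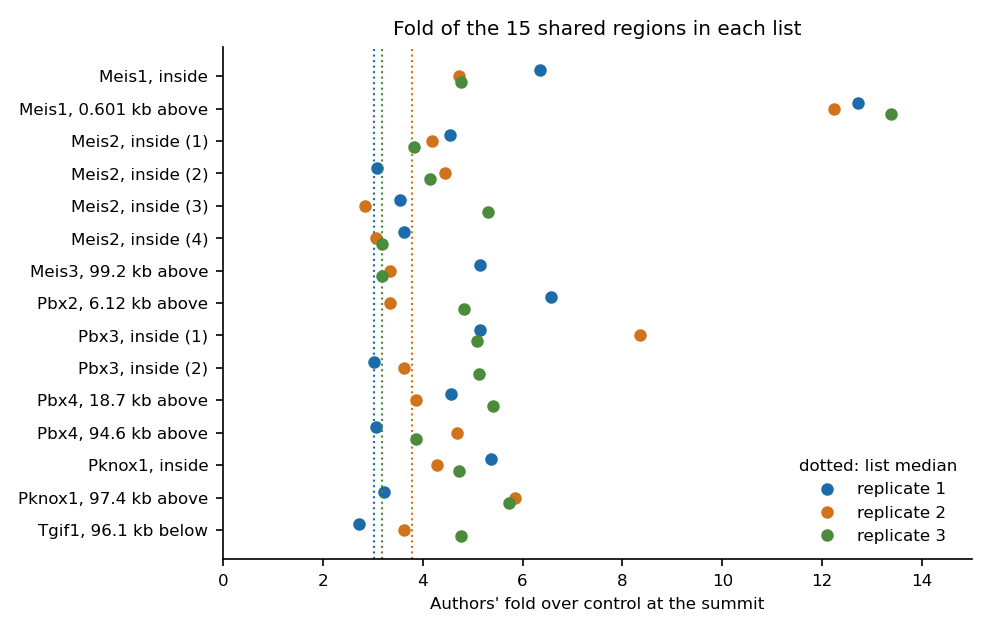
The authors' fold over the control (x axis) in each list for the 15 shared regions at the TALE genes (rows, with the place inside the gene or the distance beyond its higher (above) or lower (below) coordinate end); points are the highest peak of each replicate and dotted lines the median fold of each whole list. The region 0.601 kb above Meis1 has folds of 12.2 to 13.4, and the others lie between 2.73 and 8.35.

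In strength, 8 of the 15 shared regions had q of at most 0.05 in every list. These were both Meis1 regions, the first Meis2 region, the regions in Rnf5, Yjefn3 and Gatad2a, the stronger Pbx3 region and the region at the end of Pknox1. The strong Meis1 region had a -log10 q of at least 5 in every list, as no other of the 15 did, and it had a fold of at least 5 in every list, as did the stronger Pbx3 region. Over the whole series, 5114 regions were shared, and 2916 when only peaks with q of at most 0.05 were taken. With a -log10 q of at least 5 there were 483, and with a fold of at least 5 there were 453. In replicate 1, 14 of the 57 peaks at the 9 genes (24.6%) had a background above the lowest value of the list, beside 34.2% of all its peaks. In replicate 3 these were 14 of 37 (37.8%), beside 38.2%.

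Of other TALE homeobox genes, Irx5, Irx6 and Mkx had 1 shared region each inside the gene or within 100 kb. Irx1, Irx2, Irx3, Irx4 and Tgif2 had none, and Irx1 had no peak in any list. Over all protein-coding genes, 40.6% had at least 1. The Irx genes were short, with spans of 3.14 to 10.0 kb beside a median of 17.2 kb over all protein-coding genes. The part of length was not tested.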

How the data were processed

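ChIP DNA from 3 Onecut3-OE FLAG replicates was analysed through the peak lists that the authors deposited. Tools listed in the notes of the submitters are MACS2 2.1.0, Bowtie2 2.2.6 and deepTools 3.3.2, with GRCm38 as the build. Peak names show calling per sample against the input. The series holds 1 input library, so the 3 lists would rest on the same control and are not independent in this respect. Per the narrowPeak layout, the deposited columns are a score, a fold (ratio of pileup to background at the summit, 1 added to both), and the -log10 p-value and -log10 q-value. How reads were filtered is not given in the sources used here. Peaks overlapping by at least 1 bp were merged across lists, and regions were assigned to genes by RefSeq spans of GRCm38.p6, a table without exons, so exonic and intronic positions are not given. Pileup and background were solved from fold and p with a tolerance of 0.001 in -log10 p, which succeeded for 100.0% of peaks in replicates 1 and 3. Replicate 2 was left out of this step and has no pileup here. Members and lists were chosen with earlier results of these data known. Named are the 9 genes, every region in at least 2 lists and the nearest genes. Merging and solving were tested on simulated data. The planned motif search within regions needs a genome sequence and was made in promoters only. The planned check of protein sequences was not made. Some listed genes and a detail of the genotype are not reported here. Analysis was done in Python 3.11.15 with pandas 2.3.3, numpy 2.4.6 and scipy 1.17.1, and plots were drawn with matplotlib 3.10.9.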

Additional observations from a re-analysis of the deposited data

How the results depend on the processing

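The 15 shared regions at the TALE genes became 8 when peaks needed a q of 0.05 or less, 1 when they needed a -log10 q of 5 or more, 2 when they needed a fold of 5 or more, 8 within gene spans and 9 where the member was the nearest coding gene. The 5114 shared regions of the whole series became 2916 (q of 0.05 or less), 483 (-log10 q of 5 or more) and 453 (fold of 5 or more). The 8 of the 9 genes with a shared region became 6 (q of 0.05 or less), 1 (stricter q) and 2 (stricter fold). They stayed 8 at an overlap of 50% of both peaks and became 7 with summits within 100 bp. Within 50 kb there were 6, within gene spans 4 and by nearest gene 4. The share of all coding genes, 40.6%, moved to 29.6% (q of 0.05 or less), 7.30% (stricter q), 7.02% (stricter fold), 35.6% (overlap of 50% of both peaks), 33.8% (summits within 100 bp), 27.8% (within 50 kb), 9.53% (gene spans) and 14.5% (nearest gene). With 1 replicate left out, so that fewer lists have to share a region, there were 16 to 23 shared regions and 8 to 9 genes, with 47.3% to 56.6% of coding genes. The 23 came without replicate 2, which lacked a peak at 8 of the 12 regions in 2 lists. Over the whole series the number of shared regions also rose most without replicate 2. It was 6686, 9435 and 7279 without replicates 1, 2 and 3, beside 5114 with all lists. Among peaks with q of 0.05 or less, the median fold of the members' peaks was 4.24, 4.30 and 4.59 in replicates 1, 2 and 3. Leaving out weak peaks raises a median fold at any genes, and the medians of the whole lists at this limit are not given here. The strong Meis1 region was lost at an overlap of 50% of both peaks, where replicate 3 had a wider peak than the others, and was shared under the other 4 rules on peaks and overlap. No paired analysis was possible because the results come from no test and 1 group has peak lists. The motif search in regions, and its alternative window, were not run. The unknown depth limits what the absence of a peak can show.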
